A study of Mus musculus with 6 samples.

Results

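Expression of 10 genes of the NRF2 antioxidant program and of ferritin was compared between mouse thyroid tumors driven by nuclear YAP and tumors driven by nuclear YAP together with mutant Braf. The 10 genes, each matched by its symbol to 1 row of the 35027 genes in the table, were Nfe2l2, Nqo1, Hmox1, Gclc, Gclm, Txnrd1, Srxn1, Slc7a11, Fth1 and Ftl1.

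NRF2, the product of Nfe2l2, is a transcription factor that KEAP1 holds in the cytoplasm and delivers for degradation. Electrophiles and peroxides modify KEAP1, and NRF2 then enters the nucleus, pairs with small MAF proteins and binds antioxidant response elements in the genes of glutathione synthesis, thioredoxin recycling, quinone reduction, heme breakdown and iron storage. Ferritin, a shell of heavy and light chains, stores the iron that heme breakdown releases, and its mRNAs are also held back from translation by iron regulatory proteins when iron is scarce. In the thyroid, follicular cells make hydrogen peroxide for hormone synthesis, so peroxide handling is a standing task of this cell type.

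Tumor cells that carried the reporter Kate were sorted, and their RNA was sequenced in 3 libraries per genotype. YAP mice carried a Cre-activated rtTA allele that also encodes the red fluorescent protein Kate, and tetO-YAP S127A, a constitutively nuclear mutant of YAP, with expression restricted to the thyroid. BrafYAP mice carried the same alleles and LSL-Braf V600E, expressed from the endogenous gene. All mice were given doxycycline (dox) chow, from 4 weeks of age according to the labels, so the transgene, Cre and dox were shared by both groups and are not part of the difference. The labels give 3 pooled tumors for every YAP library (replicates 1, 2 and 3) but 1 tumor for every BrafYAP library (replicates 1, 2 and 6), so pooling and genotype cannot be told apart. The methods of the study describe replicates as single tumors, 1 per mouse. They give the same start of dox as the labels, whereas the results text of the study gives a later one. The labels were followed here. The p-values measure the spread between these libraries, and the age and sex of the mice at collection were not used here.

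Some features of whole libraries touch the genes below. The libraries held 26.2 to 36.9 M estimated reads. The correlation of log2 levels over genes was lowest for YAP replicate 1 with BrafYAP replicate 6, at 0.733, and highest for BrafYAP replicates 1 and 2, at 0.979. For YAP replicate 2 it was 0.942 with YAP replicate 3, 0.939 with BrafYAP replicate 1 and 0.874 with YAP replicate 1. Mouse Yap1 was lowest in BrafYAP replicate 6, with a value of 0.121 against 0.357 to 0.670 in the other 5 libraries, and the level of Yap1 or Braf does not show either mutation. Genes were also ordered by the highest share of G+C in any 200-base window of their transcript. In YAP replicate 1, genes whose window held 72 to 74.5% G+C were 1.23 lower on the log2 scale at the median than in the median library, and the same genes were 0.38 lower in YAP replicate 3. Markers of cell types also varied between libraries. The summed reads of 15 macrophage markers made up 0.896 to 2.93% of reads in YAP and 0.254 to 0.849% in BrafYAP libraries, and 15 of the 15 markers were detected in at least 1 library. Summed epithelial markers made up 0.549 to 1.75% and 0.753 to 1.91%, and thyroid follicular markers 0.043 to 0.113% and 0.026 to 0.0996%. In bulk samples, fewer cells of a type and less RNA per cell cannot be told apart. The 12 dissociation and stress genes summed to 0.352 to 0.790% of reads in YAP and 0.902 to 1.52% in BrafYAP libraries.

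Matches to the kinds of sequence that iron regulatory proteins and NRF2 bind are shown first. In ferritin mRNAs the iron-responsive element, a hairpin that iron regulatory proteins bind, lies in the 5′ UTR. The hairpins of Fth1 (chr19:9982732-9982761, plus strand) and Ftl1 (chr7:45459778-45459807, minus strand) were read from GENCODE M21 transcripts on mm10, and the capitals mark the loop of 6 bases. Both have a full stem of 5 paired bases above the bulged cytosine. Slc40a1, the iron exporter ferroportin, carries the same kind of hairpin in its 5′ UTR (chr1:45925464-45925493, minus strand). In Tfrc, the transferrin receptor, the search for this hairpin found 4 matches in the 3′ UTR, where binding protects the mRNA. Hairpins of other forms were not searched. Of the matches, 1 is shown (chr16:32631598-32631627, plus strand).
Fth1: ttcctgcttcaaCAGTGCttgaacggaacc
Ftl1: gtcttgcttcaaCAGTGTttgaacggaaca
Slc40a1: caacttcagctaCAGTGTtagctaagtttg
Tfrc: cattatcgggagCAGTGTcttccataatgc

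The core of the antioxidant response element, TGACNNNGC, was searched on both strands of the RefSeq promoter windows of GRCm38.p6. Each window ran from 250 bases before to 50 bases after a start, and a gene can have more than 1 start. There were 11 windows for 8 of the 10 genes, and none for Hmox1 and Gclc. Sites outside the windows were not searched, and binding was not measured. The core was present in the windows of 4 of these 8 genes, Nfe2l2, Srxn1, Gclm and Txnrd1, and in 14% of all 27025 genes with a window. Counted by window, it was present in 4 of 11, against 12.4% of all 32851 windows. The matches are shown on the strand of the gene, with the core in capitals, read forward in Nfe2l2 (chr2:75704885-75704913) and in reverse complement in Srxn1 (chr2:152105542-152105570), Gclm (chr3:122245413-122245441) and Txnrd1 (chr10:82859104-82859132). The Txnrd1 match lay in the window chr10:82858956-82859255, around a start inside the annotated span of the gene, which begins at 82833951. The AP-1 site TGANTCA, to which JUN and FOS proteins bind, can be part of an antioxidant response element. It was present in the window of 1 of the 8 genes, Srxn1, and in 8.97% of all genes. Srxn1 held 2 such sites, at -102 (chr2:152105412-152105440) and -45 (chr2:152105469-152105497) from its start, and neither overlapped the match to TGACNNNGC. With the 2 bases that follow it, the proximal site differs from TGACNNNGC at 1 position, G for C. That form was not searched, so the search does not separate the proximal site from an antioxidant response element.
Nfe2l2, antioxidant response element core: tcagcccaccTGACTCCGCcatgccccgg
Srxn1, antioxidant response element core: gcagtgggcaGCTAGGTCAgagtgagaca
Gclm, antioxidant response element core: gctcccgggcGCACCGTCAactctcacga
Txnrd1, antioxidant response element core: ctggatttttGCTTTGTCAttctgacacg
Srxn1, distal AP-1 site: tcggagggccTGAGTCAccacgctgtgcg
Srxn1, proximal AP-1 site: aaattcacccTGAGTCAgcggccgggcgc

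The levels of the 10 genes were compared per length, in TPM (a transcript's share of the library, corrected for length) recalculated with the exonic length of each gene. Ferritin dominated, with means over the 6 libraries of 5404 TPM for Ftl1 and 4881 TPM for Fth1. Hmox1 followed at 237, Nfe2l2 at 151, Srxn1 at 90.4, Txnrd1 at 68.9 and Nqo1 at 32.2 TPM. The 3 genes that supply glutathione synthesis were lowest, with means of 5.98 TPM for Slc7a11, 3.65 for Gclc and 2.67 for Gclm. Neighbours in this order were not all separated. Ftl1 was above Fth1 in 2 of 6 libraries and Srxn1 above Txnrd1 in 3 of 6, whereas Txnrd1 was above Nqo1, and Slc7a11 above Gclc, in 5 of 6. The other neighbours kept their order in 6 of 6 libraries. The order of Fth1 and Ftl1 also rests on the exonic lengths used, which merge all annotated transcripts (3469 bases for Fth1 and 1340 for Ftl1).

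**Figure D1:**
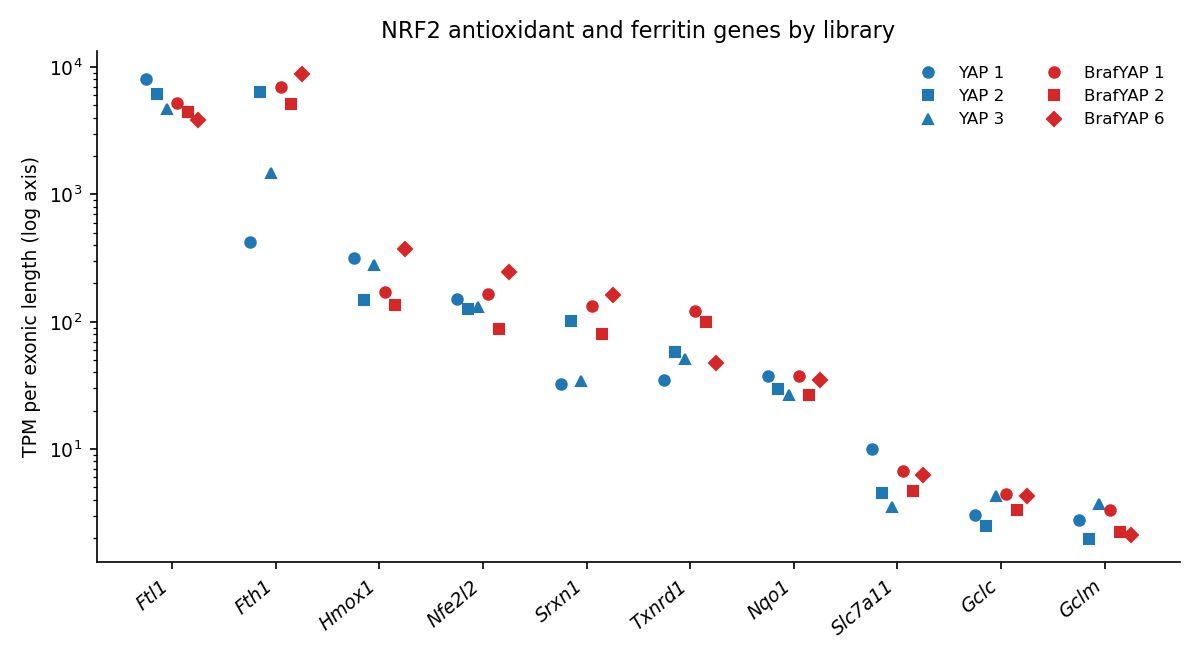
TPM per exonic length on a log axis for each of the 10 genes, with 1 point per library (blue YAP, red BrafYAP, marker shapes give the replicate). Ftl1 and Fth1 stand highest, Fth1 spans from 425 to 8836 TPM, and the groups overlap for every gene.

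To ask whether Braf V600E was accompanied by another level of these genes, BrafYAP was compared with YAP by limma on log2(value + 1), where the value is the deposited TPM. The steps between low values were closer to whole reads with the genomic span, introns included, than with the exonic length. Division by the span was therefore assumed, and these TPM are read here only within a gene. For Gclc, Gclm and Slc7a11, whose values were below a mean of 1, the estimated reads were compared in place of the TPM. After Benjamini-Hochberg adjustment over all genes tested, 0 of the 10 genes passed the threshold of 0.05, against 0.246% of the 7319 genes tested on TPM and 0% of the 16834 genes tested on reads. At an unadjusted p under 0.05 there were 0 of 7 on TPM, where 19.9% of all genes were, and 1 of 10 on reads (Srxn1), where 20.2% of all genes were. The groups overlapped for all 10 genes, whereas they did not for 28.2% of all genes on TPM and 28.7% on reads. On reads, 7 of the 10 had a log2 fold change above 0, against 44.3% of all genes, and their median was 0.09 against -0.12 for all genes tested. The share of separated genes was thus below the background.

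**Figure D2:**
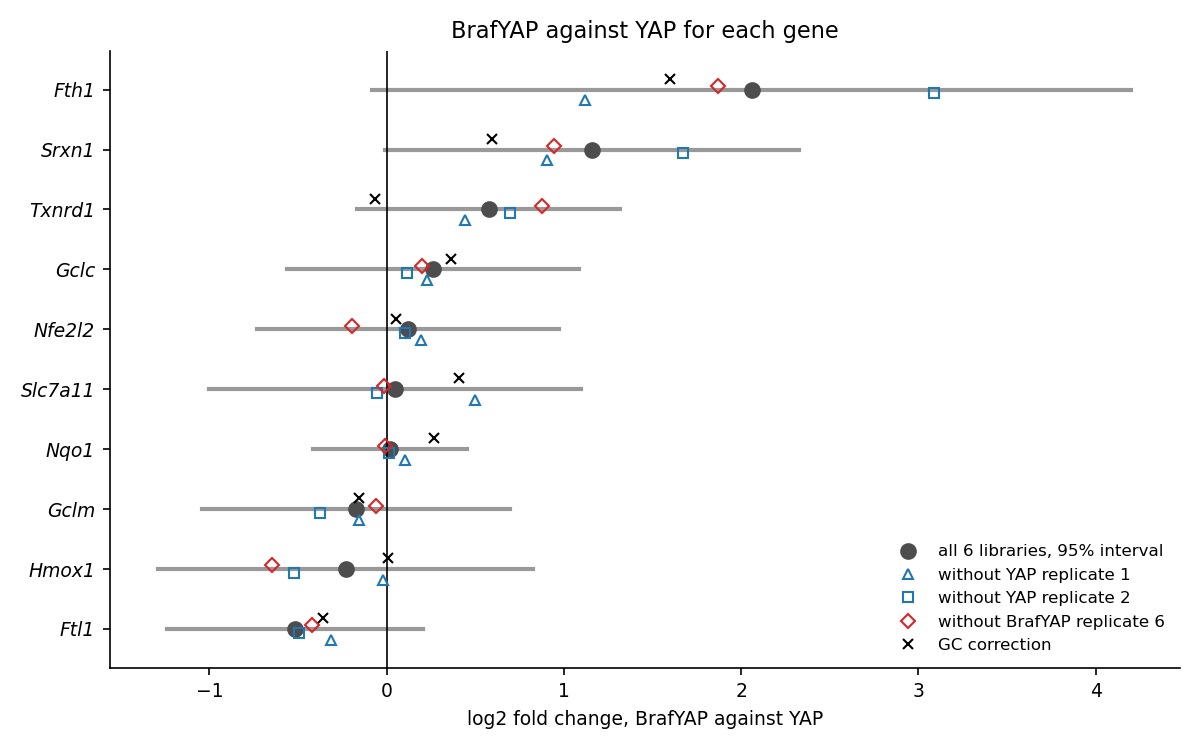
Log2 fold change of BrafYAP against YAP for the 10 genes (filled circles, all 6 libraries, with 95% intervals), with the same value when a library is left out or after the correction for G+C-rich windows. All intervals include 0. Fth1 is at 2.06 and goes from 1.12 without YAP replicate 1 to 3.09 without YAP replicate 2.

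The ferritin heavy chain gene, Fth1, encodes the subunit that oxidizes iron for storage. Its TPM was 126, 1952 and 414 in YAP replicates 1, 2 and 3, and 2020, 1448 and 2550 in BrafYAP replicates 1, 2 and 6. YAP replicate 2 lay within the BrafYAP range, and YAP replicates 1 and 3 lay below every BrafYAP library. The log2 fold change was 2.06 (SE 0.91, 95% interval -0.08 to 4.20), and the limma test gave an adjusted p of 0.262. The exact permutation test gave p = 0.2, the smallest p that 3 against 3 libraries allow being 0.1. Fth1 spread the most of the 10 genes, with 20.2-fold between its highest and its lowest library.

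Fth1 passed when 1 of the YAP libraries was left out. Without YAP replicate 2, the log2 fold change of Fth1 was 3.09 with a limma adjusted p of 0.038, and 465 of all genes passed as well. Without YAP replicate 1 it was 1.12 (adjusted p = 0.536), and without BrafYAP replicate 6 it was 1.87 (adjusted p = 0.404). The G+C-richest window of Fth1 held 72.5%, which put it among the genes that were lowest in YAP replicate 1. Fth1 was 3.73 below its median library on the log2 scale there and 2.02 below it in YAP replicate 3. After subtraction of the running median along this G+C share in each library, an alternative chosen after seeing the data, its log2 fold change was 1.60 (adjusted p = 0.283). The part of base composition in the level of Fth1 was not tested beyond this value.

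The ferritin light chain gene, Ftl1, encodes the subunit that helps iron to form its mineral core. Its TPM was 2163, 1685 and 1189 in the YAP and 1336, 1106 and 1002 in the BrafYAP libraries. YAP replicates 1 and 2 were above every BrafYAP library, and YAP replicate 3 lay within the BrafYAP range. On the log2 scale the difference was -0.52 (SE 0.30, limma adjusted p = 0.387), and Ftl1 stayed negative whichever library was left out, from -0.74 to -0.31. Its highest and lowest libraries were 2.16-fold apart, far less than for Fth1. Ftl1 is high in macrophages, and the macrophage markers were also lower in BrafYAP libraries; their part in the level of Ftl1 was not tested. A pseudogene of Ftl1, Ftl1-ps1, was listed at 26.3 to 28.3% of the Ftl1 value in every library, so the quantification may have divided reads between these near-identical copies and both levels are uncertain.

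The 2 chains were set side by side within each library, a comparison chosen after their values were seen. The ratio of Fth1 to Ftl1 TPM per exonic length was 0.052, 1.04 and 0.311 in YAP replicates 1, 2 and 3. In BrafYAP replicates 1, 2 and 6 it was 1.36, 1.17 and 2.28. The groups did not overlap, although YAP replicate 2 came close to the lowest BrafYAP library. The YAP mean was 0.467 ± 0.511 (SD, n = 3) and the BrafYAP mean 1.60 ± 0.59 (SD, n = 3). The exact permutation test gave p = 0.1, the smallest p possible. When the reads of Ftl1-ps1 were added to those of Ftl1, the ratio ran from 0.066 to 2.79 with the same separation. Ftl1 lay outside the G+C range that was lowest in YAP replicate 1, with 65.5% in its richest window, so the ratio also carries the deviation described for Fth1. As the ratio depends on the lengths used, its differences between libraries can be read, and its distance from 1 cannot.

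**Figure D3:**
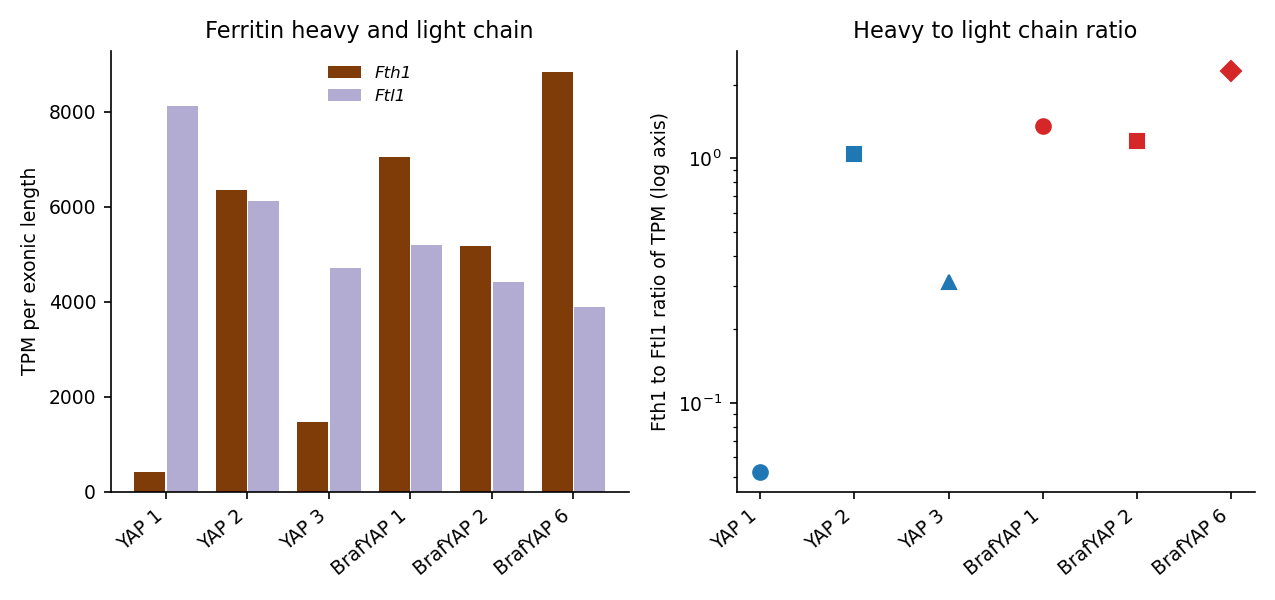
Left, TPM per exonic length of Fth1 and Ftl1 in each library. Right, the ratio of Fth1 to Ftl1 on a log axis (blue YAP, red BrafYAP). Fth1 runs from 425 to 8836 TPM and Ftl1 from 3878 to 8112, and the ratio is lowest in YAP replicate 1 at 0.052 and highest in BrafYAP replicate 6 at 2.28.

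Hmox1 encodes heme oxygenase, which opens the heme ring and frees its iron. Its TPM was 30.6, 14.8 and 25.6 in the YAP and 16.1, 12.4 and 34.9 in the BrafYAP libraries. BrafYAP replicate 6 was the highest of all and BrafYAP replicate 2 the lowest, so the BrafYAP libraries spanned the whole range of YAP. BrafYAP against YAP gave a log2 fold change of -0.23 (limma, SE 0.45, adjusted p = 0.798), with -0.64 when BrafYAP replicate 6 was left out and 0.06 when BrafYAP replicate 2 was. Hmox1 is also expressed by macrophages that clear red cells. The summed macrophage markers were lowest in BrafYAP replicate 6, at 0.254% of reads, where Hmox1 was highest. The single markers were not uniform there. Cd163 was 0.97 above its median library on the log2 scale, and the other markers were below theirs. The part of macrophages in the level of Hmox1 was not tested.

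Srxn1 encodes sulfiredoxin, which restores peroxiredoxins that peroxide has over-oxidized, and it was the gene with both kinds of motif in its promoter window. Its TPM was 6.04, 19.4 and 6.01 in the YAP and 23.8, 13.9 and 29.2 in the BrafYAP libraries. As for Fth1, YAP replicate 2 lay within the BrafYAP range and YAP replicates 1 and 3 lay below it. For Srxn1 the log2 fold change was 1.16 (SE 0.49, 95% interval -0.01 to 2.33, limma adjusted p = 0.252). It stayed above 0 whichever library was left out, from 0.90 to 1.67, with adjusted p from 0.053 to 0.526. On estimated reads it was 1.26 with an unadjusted limma p of 0.049 and an adjusted p of 0.245.

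The richest window of Srxn1 held 77% G+C, and after the correction for G+C its log2 fold change was 0.59. Of the dissociation and stress genes, which include JUN and FOS family members, 10 of 12 had a log2 fold change above 0 (44.3% of all genes). Of the 12, 7 were higher in BrafYAP without overlap (11.6% of all genes). At an unadjusted limma p under 0.05 there were 7 (20.2% of all genes), and 0 passed. The median of this list was 1.66, and 1.25 after the correction for G+C. The 4 non-overlapping ones with the smallest p were Egr1, Jun, Hspa1b and Hspa1a, with log2 fold changes of 1.63, 2.77, 3.22 and 3.27. The other JUN and FOS family members differed, with Junb at 2.95, Fos at 0.34 and Fosb at -0.52. Of 10 targets of the MAPK pathway, 8 were higher in BrafYAP without overlap (11.6% of all genes). At an unadjusted limma p under 0.05 there were 7 (20.2% of all genes), and 0 passed. The median of these targets was 2.03, and 1.65 after the correction for G+C. The part of either list in the level of Srxn1 was not tested.

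Txnrd1 encodes the cytosolic thioredoxin reductase, a selenoprotein that passes electrons from NADPH to thioredoxin. Its TPM was 1.50, 2.57 and 2.06 in the YAP and 5.05, 4.06 and 1.96 in the BrafYAP libraries. BrafYAP replicates 1 and 2 were above every YAP library, and BrafYAP replicate 6 lay among them. For Txnrd1 the log2 fold change was 0.58 (SE 0.31, limma adjusted p = 0.354), and it was 0.88 (adjusted p = 0.163) without BrafYAP replicate 6. The sign did not hold under the correction for G+C, where it was -0.06, and the richest window of Txnrd1 held 75.5% G+C. The annotated span of Txnrd1 overlaps 3 other genes, Eid3, Gm38560 and Gm47073, with which it could share reads.

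**Figure D4:**
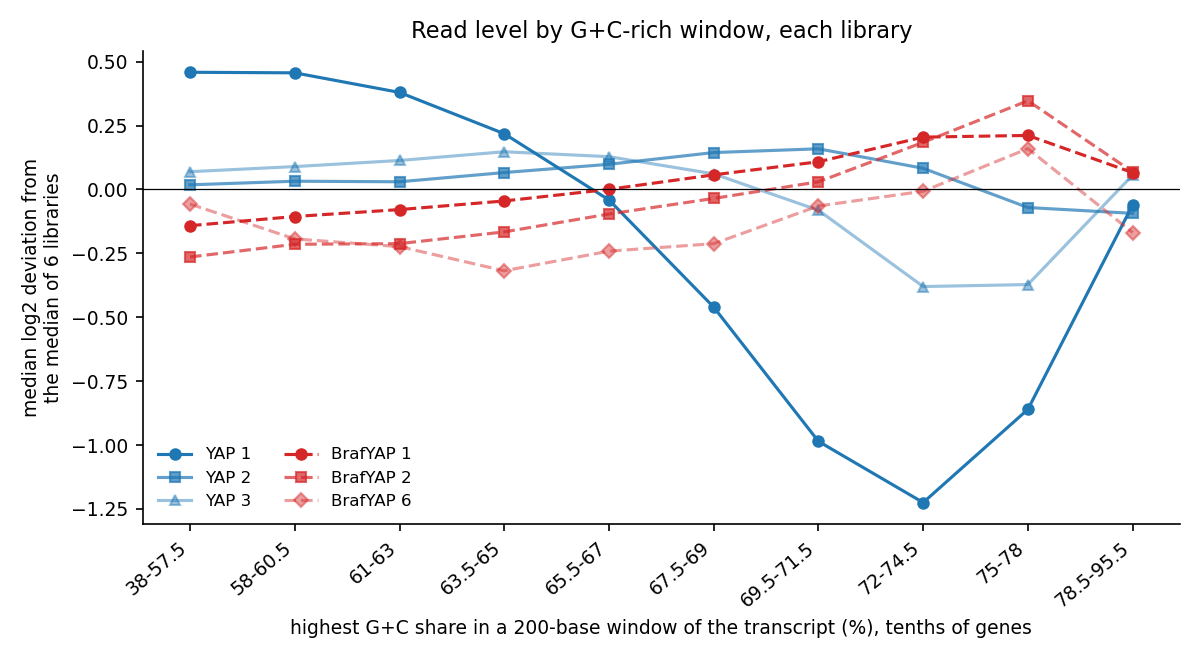
Median log2 deviation of genes from the median of the 6 libraries, for 11108 genes in bins ordered by the highest G+C share in a 200-base window of their transcript (solid blue YAP, dashed red BrafYAP). YAP replicate 1 drops to -1.23 in the bin from 72 to 74.5%, which holds Fth1, and is at -0.86 in the bin from 75 to 78%, which holds Srxn1 and Txnrd1.

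Slc7a11 encodes the light chain of the exchanger that brings in cystine for glutathione and sends out glutamate. Its estimated reads, scaled between libraries, were 1635, 761 and 540 in the YAP and 1048, 717 and 991 in the BrafYAP libraries. YAP replicate 1 was the highest and YAP replicate 3 the lowest, with the BrafYAP libraries between them. Slc7a11 thus had a log2 fold change of 0.05 (limma, SE 0.45, adjusted p = 0.962), and it ran from -0.30 to 0.50 when 1 library was left out and was 0.41 after the correction for G+C. The annotated span of Slc7a11 overlaps 5 predicted genes.

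The partner of Slc7a11 in the exchanger, Slc3a2, showed another order of libraries. It was chosen for description after its values were seen, and its TPM was 2.61, 19.5 and 5.87 in the YAP and 23.6, 16.5 and 22.4 in the BrafYAP libraries. The log2 fold change of Slc3a2 was 1.44 (SE 0.60, limma adjusted p = 0.246). It was 0.86 without YAP replicate 1, 2.12 without YAP replicate 2 (adjusted p = 0.038, past the threshold) and 1.18 after the correction for G+C. Low values in YAP replicates 1 and 3 were thus seen in Fth1, Srxn1 and Slc3a2, and YAP replicate 1 was the highest library for Slc7a11.

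Gclc and Gclm encode the catalytic and the modifier subunit of glutamate-cysteine ligase, the rate-limiting enzyme of glutathione synthesis. The scaled reads of Gclc were 133, 114 and 179 in the YAP and 186, 138 and 182 in the BrafYAP libraries. The scaled reads of Gclm were 201, 149 and 255 in the YAP and 233, 153 and 150.1 in the BrafYAP libraries. Both subunits were thus read from low numbers. YAP replicate 2 was the lowest library for both, and no BrafYAP library exceeded YAP replicate 3 for Gclm. The log2 fold change was 0.26 (SE 0.35, limma adjusted p = 0.696) for Gclc and -0.17 (SE 0.37, adjusted p = 0.814) for Gclm. The 95% interval ran from -0.56 to 1.09 for Gclc and from -1.04 to 0.70 for Gclm, so a difference of 1 log2 unit, upward for Gclc and downward for Gclm, lay within them.

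Nqo1, which reduces quinones by NADPH or NADH and is widely used as a readout of NRF2 activity, was the steadiest of the 10 genes. Its TPM was 1.51, 1.22 and 1.00 in the YAP and 1.46, 1.012 and 1.35 in the BrafYAP libraries, 1.51-fold from lowest to highest. The groups covered almost the same range. Nqo1 had a log2 fold change of 0.02 (limma, SE 0.18, adjusted p = 0.964), and its 95% interval, -0.41 to 0.45, was the narrowest of the 10. At TPM near 1 the added 1 compresses differences, and on scaled reads the SE was 0.31. After the correction for G+C it was at 0.27.

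Nfe2l2 itself had TPM of 7.58, 6.55 and 6.25 in the YAP and 8.01, 4.13 and 12.1 in the BrafYAP libraries. The YAP libraries were close together, and BrafYAP replicate 6 was above and BrafYAP replicate 2 below all of them. For Nfe2l2 the log2 fold change was 0.12 (SE 0.36, limma adjusted p = 0.875), and without BrafYAP replicate 6 it was -0.19. NRF2 is controlled mainly at the level of its protein, which was not measured here.

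The regulators of NRF2 were read from a list of 14 genes. At an adjusted p under 0.05, 0 of the 14 passed in the limma fit, 2 had an unadjusted p under 0.05 (20.2% of all genes did), 1 did not overlap between the groups (28.7% of all genes did not), and their median log2 fold change on reads was -0.03. On TPM, 2 of the 7 regulators tested had an unadjusted limma p under 0.05 (19.9% of all genes did). With so few genes, these counts are not read as a difference from the background. The gene that did not overlap was Keap1, the adaptor that targets NRF2 for degradation. Its TPM was 0.783, 7.18 and 2.34 in the YAP and 10.4, 11.0 and 12.2 in the BrafYAP libraries, with every BrafYAP library above every YAP library. The log2 fold change of Keap1 was 1.73 (SE 0.52, limma adjusted p = 0.141). Its order of YAP libraries was that of Fth1, its richest window held 78% G+C, and after the correction for G+C its log2 fold change was 1.25 (adjusted p = 0.189). Without YAP replicate 2, Keap1 passed, with a limma adjusted p of 0.036. Keap1 was not alone in this. Sqstm1, another of the 14 and described after its values were seen, had overlapping groups and a log2 fold change of 1.88. Without YAP replicate 2 it was at 2.70 (limma adjusted p = 0.048), and it was at 1.62 after the correction for G+C. Bach1, a heme-sensing repressor of NRF2 targets such as Hmox1 and the ferritin genes, was at -0.06 on the log2 scale (SE 0.39, limma adjusted p = 0.945).

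Of 30 other NRF2 targets, 27 were tested by limma on reads, and 0 passed in either direction. At an unadjusted p under 0.05 there were 6 higher and 2 lower ones, 29.6% of the list against 20.2% of all genes tested on reads. The groups did not overlap for 6 that were higher in BrafYAP (11.6% of all genes tested on reads) and for 5 that were lower (17.1% of all genes), and the median log2 fold change was 0.04. This median was -0.28 over the 18 genes tested on TPM and -0.33 on reads without BrafYAP replicate 6. Gsta4, a glutathione transferase for lipid aldehydes, was at 2.33 on the log2 scale (SE 0.54, limma adjusted p = 0.103), and Osgin1, a growth inhibitor induced by oxidative stress, at 1.39 (SE 0.34, adjusted p = 0.102). Cbr3, a carbonyl reductase, was at 1.63 (SE 0.50, adjusted p = 0.144). Among the lower ones, Prdx6, a peroxiredoxin that reduces phospholipid peroxides, was at -0.96 (SE 0.34, adjusted p = 0.182).

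Gsta4 and Osgin1 lay outside the G+C range that was lowest in YAP replicate 1. The richest window held 56.5% G+C in Gsta4 and 65% in Osgin1, and after the correction for G+C they were at 2.68 and 1.59. Both were higher in all 3 BrafYAP libraries than in any YAP library. When 1 library was left out, Gsta4 went from 1.80 to 2.65 and Osgin1 from 1.16 to 1.67, and neither passed in any of these fits.

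**Figure D5:**
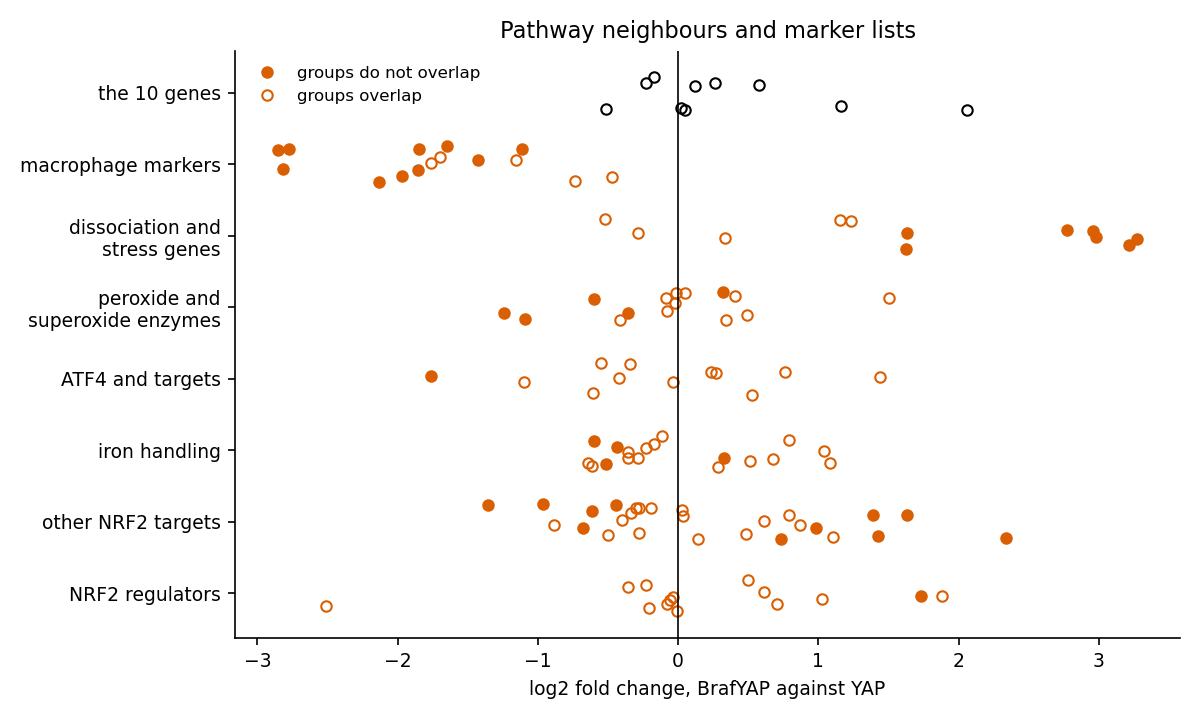
Log2 fold change of BrafYAP against YAP for each tested gene of the neighbouring lists, on its main scale (filled, groups do not overlap). The 10 genes, all overlapping, run from -0.52 to 2.06, and 0 genes of any list shown passed the adjusted threshold with all 6 libraries.

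Iron handling was read from 18 tested genes of 19 listed. Among them 0 passed and 1 had an unadjusted p under 0.05 (20.2% of all genes did). Without overlap, 1 was higher and 3 were lower in BrafYAP, a share not above the 28.7% of all genes. The median log2 fold change was -0.26, and -0.06 after the correction for G+C. Tfrc had TPM of 3.18, 1.63 and 2.68 in the YAP and 1.55, 0.883 and 1.43 in the BrafYAP libraries. Every BrafYAP library was below every YAP library, though BrafYAP replicate 1 and YAP replicate 2 were close. The log2 fold change of Tfrc was -0.60 (SE 0.25, limma adjusted p = 0.242), and -0.32 (adjusted p = 0.374) after the correction for G+C. Slc40a1, the iron exporter, was at 0.79 (SE 0.44, adjusted p = 0.351).

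The iron regulatory proteins that bind the hairpins shown above are encoded by Aco1 and Ireb2. Aco1 was at -0.12 on the log2 scale (SE 0.22, limma adjusted p = 0.788) and Ireb2 at -0.36 (SE 0.39, adjusted p = 0.633). Fbxl5, which marks these proteins for degradation when iron is plentiful, did not overlap between the groups and was at 0.33 (SE 0.19, adjusted p = 0.376). Slc39a14, a transporter of iron that is not bound to transferrin, and Blvra, which turns the biliverdin made by heme oxygenase into bilirubin, did not overlap either. They were at -0.52 (SE 0.24, adjusted p = 0.290) and -0.43 (SE 0.20, adjusted p = 0.286). The same correction put Blvra at -0.18, Fbxl5 at 0.12, Aco1 at -0.75 and Ireb2 at -0.042, and Slc39a14 was at -0.31 without BrafYAP replicate 6.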

How the data were processed

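The authors used STAR 2.6.1d to align reads to mm10, counted reads per gene in Partek (E/M, Ensembl release 95), and deposited TPM with 0.0001 added. In low values, whole-read steps were found for 71.7 to 76.1% of values with the genomic span and for 22.4 to 25.1% with the exonic length (within 0.05), so the deposited TPM were taken as divided by the span. Estimated reads are the value times the span over the step of the library; in fits they were scaled to one step. A count model does not suit TPM, and limma 3.58.1 in R 4.3.3 (lmFit, eBayes with trend) gave two-sided tests of BrafYAP against YAP. The scale was log2(value + 1) where the mean reached 1, or log2(scaled reads + 1) where it reached 10. The fit was tested on simulated data with the same relative spread for all genes. Those data held no deviation of single libraries or by G+C, so the test does not cover such deviations. All 10 genes were named, and from each neighbouring list up to 4 genes whose groups did not overlap, with the smallest p, and Keap1, Bach1, Tfrc, Slc40a1, Atf4, Ireb2 and Aco1. Marker lists were summed as shares of reads. The genes, lists and tests were chosen with earlier results of these data known. As the counting is not stated to use strand, overlapping genes can share reads. Reads carry no molecular identifiers.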

Additional observations from a re-analysis of the deposited data

How the results depend on the processing

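Over 194 values of the 10 log2 fold changes under alternatives, 173 kept their direction and their side of the threshold, 18 reversed and 3 passed; the cause was not tested. With array weights, estimated gene by gene, Fth1 (1.89, adjusted p = 0.043) and Txnrd1 (0.79, adjusted p = 0.031) passed, so that 2 of the 7 genes tested on TPM passed, beside 1393 of all 7319, and 1 of 10 on reads, beside 1884 of all 16834. When 1 library was left out, 0 to 1 passed on TPM (Fth1, without YAP replicate 2). With 1 library left out, Fth1 ran from 1.12 to 3.09, Nfe2l2 from -0.19 to 0.48, Nqo1 from -0.060 to 0.11, Hmox1 from -0.64 to 0.063, Gclm from -0.38 to 0.013 and Slc7a11 from -0.30 to 0.50. Nfe2l2 was at -0.095 with array weights and Nqo1 at -0.033 after quantile normalization. After the correction for G+C, Hmox1 was at 0.010 and Txnrd1 at -0.065, and Nqo1 at 0.27 and Slc7a11 at 0.41.

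The replicate numbers 1 and 2 occur in both groups, and same-numbered libraries deviated from their group means with correlations of -0.048 and 0.062, so the numbers were not taken to pair the samples. With the replicate block, in which YAP replicate 3 and BrafYAP replicate 6 add nothing to the difference, Nfe2l2 was at -0.24, Nqo1 at -0.087, Gclm at 0.12 and Slc7a11 at -0.36, and 0 of all genes passed.

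Of all genes tested on TPM, 18 passed as reported. The number was 1 with a pseudocount of 0.1, after median-ratio normalization or without a trend. It was 0 with a pseudocount of 0.0001, without a filter, with the length division undone, by voom or with protein-coding genes only. It was 3 with the higher minimum mean, 32 with the correction for G+C, 47 after quantile normalization, 62 with the exonic length and 1393 with array weights, and it ran from 0 to 465 (without YAP replicate 2) when 1 library was left out. With 3 libraries a group, changes smaller than the printed intervals were not detectable.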

Other observations

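ATF4, a factor of the amino acid response, also acts on Slc7a11. Atf4 had TPM of 60.1, 93.1 and 158 in the YAP and 147, 112 and 89.0 in the BrafYAP libraries, and was at 0.24 on the log2 scale (SE 0.41, limma adjusted p = 0.769). Of the 11 genes of Atf4 and its targets tested on reads by limma, 0 passed, and 3 had an unadjusted p under 0.05 (20.2% of all genes did). Without overlap, 0 were higher and 1 was lower in BrafYAP (28.7% of all genes did not overlap). The median log2 fold change was -0.54, but -0.19 over the genes tested on TPM, -0.15 with the higher minimum mean, -0.077 without BrafYAP replicate 6 and 0.37 with the replicate block. The lower one was Aldh1l2, a mitochondrial folate enzyme that makes NADPH, at -1.76 (SE 0.65, adjusted p = 0.197).

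Of 15 peroxide and superoxide enzymes, 0 passed, 1 had an unadjusted p under 0.05 (20.2% of all genes did), 1 was higher and 4 were lower in BrafYAP without overlap (28.7% of all genes did not overlap), and the median was -0.02. Of all genes, 17.1% were lower without overlap. With 15 genes, none of these counts is read as a difference from the background. The 4 lower ones were Gpx3, a secreted glutathione peroxidase, Gpx8, a peroxidase of the endoplasmic reticulum, and Prdx3 and Txn2, the peroxiredoxin and thioredoxin of mitochondria. Gpx3 was at -1.10 (SE 0.38, limma adjusted p = 0.178) and Gpx8 at -1.24 (SE 0.57, adjusted p = 0.279), which was -0.58 without BrafYAP replicate 6, with Prdx3 at -0.60 and Txn2 at -0.36. After the correction for G+C Prdx3 was at -0.32 and Txn2 at -0.76. Among the 15 macrophage markers 15 had a log2 fold change below 0, whereas 44.3% of all genes were above 0. Of the 15, 10 were lower in BrafYAP without overlap (17.1% of all genes). At an unadjusted limma p under 0.05 there were 12 (20.2% of all genes), and 0 passed. C1qa, C1qb and C1qc, which encode complement C1q, were at -2.85, -2.82 and -2.77, and Ptprc, which encodes CD45, was at -1.85.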
